A study of Mus musculus with 2 samples.

Results

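The solute carrier families SLC4, SLC8, SLC9, SLC12, SLC13, SLC20, SLC24, SLC26 and SLC34 hold the exchangers and cotransporters that carry sodium, potassium, protons, chloride, bicarbonate, sulfate, phosphate and calcium across cell membranes. Their members were taken by gene symbol, as every gene whose symbol starts with one of these family names and "a", followed by a number. The rule found 50 of the 17305 genes measured, each through 1 probe set annotated to a single gene (the brightest where a gene had several). It did not use any expression difference. It also took in 3 genes that are no transporters: the scaffold genes Slc9a3r1 and Slc9a3r2, whose PDZ-domain proteins bind exchangers at the brush border, and Slc4a1ap, named for an adaptor of the exchanger Slc4a1. Other genes of these families were not analysed as members. Slc8b1, Slc9b1 and Slc9b2, whose symbols fall outside the rule, were placed in a list of related carriers.

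The small intestine and the colon absorb salt through pairs of exchangers in the apical membrane that work side by side: a sodium-proton exchanger of the SLC9 family takes up sodium, and a chloride-bicarbonate exchanger of the SLC26 family takes up chloride. Fluid secretion runs on the basolateral sodium-potassium-chloride cotransporter of the SLC12 family, which loads the cell with chloride that leaves through apical channels. Sodium-coupled carriers of the SLC13, SLC20 and SLC34 families bring in sulfate, dicarboxylates and phosphate.

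Total RNA of 2 mouse samples was measured, with 1 array each. The graft was small intestinal epithelium from an EGFP-transgenic donor (C57BL6 background), cultured for 7 days as organoids, instilled into the colon of a C57BL6 recipient and collected 4 weeks after transplantation, and the control was normal colonic epithelium of a C57BL6 mouse without a graft. Both epithelia were laser-microdissected from sections, and 4.33 ng of RNA per sample was amplified; the labels give neither age nor sex of the mice. Each group is a single specimen chosen for its RNA integrity, so no difference below has a replicate check, no test was possible and no p-value is given. Ungrafted small intestine was not analysed here, so origin in the small intestine and the effect of culture and grafting cannot be told apart.

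All values are the authors' deposited log2 expression levels, and a difference is the graft level minus the colon level. The only error the table gives is the disagreement between different probe sets of 1 gene: over 586 genes with a pair of probe sets at or above the median gene level, their differences varied with an SD of 0.48. Of 41 such genes at least 2-fold apart by the brighter probe set, the second had the same direction in 36 and reached 2-fold in 17. Of the 50 members, 48 have 1 probe set, among them all those at least 2-fold apart. The median of all gene values, 5.48, and the 20th percentile of each array, 4.79 for the graft and 4.77 for the colon, serve as marks for low signal, since no detection calls come with the values. A level cannot be set against that of another gene, because probe sets differ in brightness.

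Cell type markers were checked against the labels. Of 10 general epithelial markers 0 differed by 2-fold. Of 8 small intestinal absorptive markers 6 exceeded their colon level by 2-fold or more. All 7 measured markers of colonic epithelium fell short of their colon level by 2-fold or more. The lists were chosen with earlier results of these data known, so these counts are no independent check of the labels. Lct, the lactase gene and a defining marker of small intestinal enterocytes, lay at 4.92 (graft) and 4.64 (colon).

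Expression of these genes was lower in the graft for some members and higher for others of the same family. In the graft 6 of the 50 members were at least 2-fold lower than in control colon, compared with 3.09% of all genes, and 3 of the 50 were at least 2-fold higher, compared with 1.93% of all genes. The lower members were Slc26a3, Slc26a2, Slc20a1, Slc13a2, Slc9a2 and Slc34a2, and the higher ones were Slc13a1, Slc26a6 and Slc9a3. Together these 9 made 18% of the members, against 5.02% of all genes and 12.3% of the 292 other measured solute carrier genes. At a 4-fold threshold 4 members were lower, compared with 0.745% of all genes, and 2 were higher, compared with 0.595%. Of these, Slc13a2 and Slc26a6 passed 4-fold only through a level below the median of all gene values. With such values raised to that median they were 2.73-fold and 3.22-fold apart. The median difference was 0 over the members and 0 over all genes. The smallest difference among these 9 members was 1.40 in size. Of the other 41 members, 29 lay below the median gene level on both arrays and differed by -0.22 to 0.48, and the remaining 12 differed by -0.79 to 0.47.

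**Figure D1:**
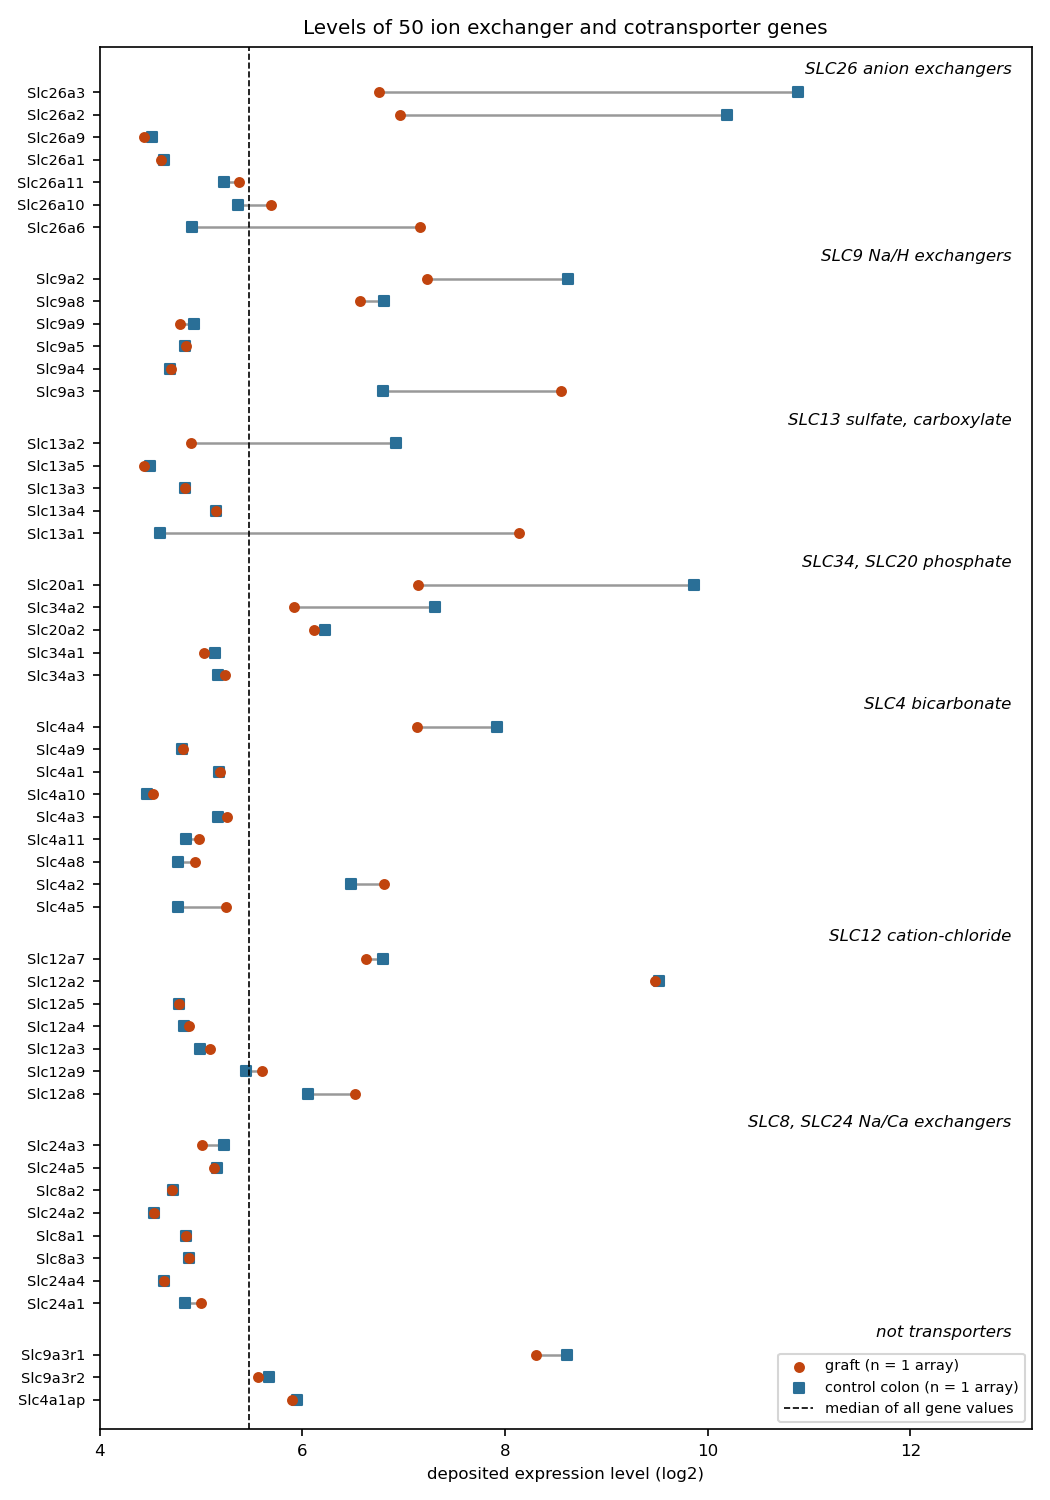
Deposited log2 expression level (x axis) of the 50 member genes (rows, by family) on the graft array (circles) and the control colon array (squares), 1 array each, so there are no error bars. The dashed line is the median of all gene values, 5.48; the long bars belong to the 9 members at least 2-fold apart, and the 29 members left of it on both arrays have short bars.

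SLC26 anion exchangers went in both directions. Slc26a3, the apical chloride-bicarbonate exchanger whose loss causes chloride-losing diarrhoea, had levels of 6.76 (graft) and 10.90 (colon), a difference of -4.14 or 17.6-fold. Slc26a2, a sulfate transporter, was at 6.97 (graft) and 10.20 (colon), 9.37-fold lower. Both genes stayed above the median gene level on both arrays. Slc26a6, another apical anion exchanger, which carries chloride, bicarbonate and oxalate, was at 7.16 (graft) and 4.91 (colon), a difference of 2.26 or 4.77-fold. In the colon Slc26a6 was below the median gene level. With values under that median raised to it, its difference was 1.69. The other 4 measured SLC26 genes, Slc26a1, Slc26a9, Slc26a10 and Slc26a11, differed by -0.07 to 0.33.

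The SLC9 sodium-proton exchangers also went in both directions among the apical forms. Slc9a3 encodes the main exchanger of intestinal sodium absorption, and its level was 8.55 (graft) and 6.80 (colon), a difference of 1.75 or 3.37-fold. Slc9a2, a second apical form, was at 7.23 (graft) and 8.62 (colon), 2.63-fold lower. All 4 of these levels were above the median gene level, and the directions were opposite. Slc9a8, a further exchanger of intestinal epithelium, was at 6.57 (graft) and 6.81 (colon), a difference within the spread between probe sets. Slc9a4 (4.70 in both), Slc9a5 (4.85 in both) and Slc9a9 (4.79 (graft) and 4.94 (colon)), which are known from stomach, brain and endosomes, stayed below the median gene level on both arrays.

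Among the 5 sodium-sulfate and sodium-carboxylate cotransporters of the SLC13 family, one sulfate and one carboxylate carrier differed in opposite directions. Slc13a1, the sodium-sulfate cotransporter of small intestine and kidney, was at 8.14 (graft) and 4.60 (colon), 11.7-fold higher. Its colon level was below the 20th percentile of that array and cannot be separated from background. With values under the gene median raised to it, the difference was 2.66 in place of 3.54. Slc13a2, which carries citrate and succinate, was at 4.90 (graft) and 6.93 (colon), a difference of -2.02 or 4.07-fold. In the graft Slc13a2 was below the median gene level, and its difference was -1.45 with low values raised to that median. Slc13a3 and Slc13a4 were listed with the same value on both arrays, 4.84 and 5.14, and the citrate carrier gene Slc13a5 was at 4.44 (graft) and 4.50 (colon).

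Upstream sequences are shown for 4 of the members with opposite directions, 2 lower and 2 higher in the graft, so that the letters before their starts can be compared; these 4 genes and the sequences searched were chosen after the members' values were seen. They are the 250 bases before the RefSeq gene start in GRCm38.p6, 5′ to 3′ on the gene's strand. Slc26a3 lies at chr12:31437969-31438218 (+), Slc13a2 at chr11:78422235-78422484 (-), Slc9a3 at chr13:74121163-74121412 (+) and Slc26a6 at chr9:108853793-108854042 (+). Capitals mark matches, on either strand, to any of 6 short sequences named further on.
Slc26a3: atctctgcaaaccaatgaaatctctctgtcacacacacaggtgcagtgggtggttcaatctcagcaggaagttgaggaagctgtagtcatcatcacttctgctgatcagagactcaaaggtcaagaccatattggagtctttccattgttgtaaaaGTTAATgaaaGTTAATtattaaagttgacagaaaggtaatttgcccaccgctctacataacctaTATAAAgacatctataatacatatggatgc
Slc13a2: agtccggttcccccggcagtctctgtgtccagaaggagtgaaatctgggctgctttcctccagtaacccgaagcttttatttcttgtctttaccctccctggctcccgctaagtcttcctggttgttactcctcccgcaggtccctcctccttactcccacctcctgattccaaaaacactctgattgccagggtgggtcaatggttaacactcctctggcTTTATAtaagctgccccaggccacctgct
Slc9a3: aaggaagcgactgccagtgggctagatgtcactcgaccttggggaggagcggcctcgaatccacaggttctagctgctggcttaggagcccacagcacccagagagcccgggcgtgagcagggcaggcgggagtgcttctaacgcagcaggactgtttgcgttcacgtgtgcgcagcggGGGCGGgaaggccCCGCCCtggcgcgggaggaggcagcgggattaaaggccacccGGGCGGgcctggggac
Slc26a6: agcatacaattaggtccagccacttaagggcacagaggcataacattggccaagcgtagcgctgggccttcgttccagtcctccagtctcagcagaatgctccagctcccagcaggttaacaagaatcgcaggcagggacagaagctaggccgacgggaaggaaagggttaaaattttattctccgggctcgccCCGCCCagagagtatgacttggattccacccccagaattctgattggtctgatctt
Both printed genes that were lower in the graft hold a match to TATAAA, the sequence searched for the TATA box. The match starts 30 bases before the gene start in Slc26a3, on the gene's strand. In Slc13a2 it starts 29 bases before the gene start and lies on the opposite strand. On the gene's strand the letters there hold the similar run TATATAAG, which a search for TATAAA does not match. Both printed genes that were higher lack a TATAAA match in this window. They hold the GC box, searched as GGGCGG, with 3 matches in Slc9a3 and 1 in Slc26a6. Slc26a3 also holds part of the site of HNF1 factors, searched as GTTAAT, at 94 and 84 bases before its start. The windows of Slc13a2 and Slc26a6 hold the similar letters GTTAAC, which this search does not match. The site of GATA factors was searched as AGATAA and had no match in these windows. The same holds for the site of the intestinal CDX factors, searched as TTTATG, and for that of the nuclear receptor HNF4, searched as CAAAGT. Matches of different sequences may overlap. Among all 32851 windows of this length in the table, the TATA box occurs in 12.4%, the GC box in 32.7%, the HNF1 sequence in 6.43%, the GATA sequence in 9.99%, the CDX sequence in 10.8% and the HNF4 sequence in 12.6%. Of the 9 members at least 2-fold apart, 6 had a RefSeq window. Slc13a1, the member with the largest higher difference, and the lower members Slc26a2 and Slc9a2 had none. RefSeq windows were matched for 40 of the 50 members, with 53 starts. Of these 53 windows, 9 hold the TATA box, 23 the GC box, 3 the HNF1 sequence, 11 the GATA sequence, 3 the CDX sequence and 4 the HNF4 sequence. Slc20a1, with 2 starts and lower in the graft, holds the GC box at both, with 2 matches and 1, and Slc34a2, also lower, holds none. Neither has a TATA box match in its windows, although at 1 start of Slc20a1 such a match begins 1 base before the start and runs over it, outside the window. The window of Slc34a2 does hold the similar run TATATATA, which a search for TATAAA does not match. The difference in matches to these 2 searched sequences between the printed genes thus does not extend to all lower members, and it depends on the exact letters searched. A match describes letters and shows no bound factor.

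Sodium-phosphate cotransporters were lower in the graft or little different. Slc20a1, a widely expressed phosphate carrier, was at 7.14 (graft) and 9.87 (colon), a difference of -2.73 or 6.62-fold. Slc34a2, the apical phosphate cotransporter of intestinal epithelium, was at 5.92 (graft) and 7.31 (colon), 2.63-fold lower. Both stayed above the median gene level on both arrays. Slc20a2, the close relative of Slc20a1, was at 6.12 (graft) and 6.23 (colon), a difference of -0.11. Slc34a1 (5.03 and 5.14) and Slc34a3 (5.24 and 5.17), the forms of the kidney, were below the median gene level in both.

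None of the 9 measured bicarbonate transporters of the SLC4 family was 2-fold apart. Over all genes the share was 5.02%, so that a count of 0 among 9 does not set the family apart. Slc4a4, the sodium-bicarbonate cotransporter of the basolateral membrane, was at 7.13 (graft) and 7.92 (colon), 1.73-fold lower. It was the only further member past a 1.5-fold threshold, which 7 members passed as lower, compared with 8.17% of all genes. Slc4a2, the housekeeping chloride-bicarbonate exchanger, was at 6.81 (graft) and 6.48 (colon), a difference of 0.32. Only these 2 of the SLC4 genes reached the median gene level on either array. Slc4a1, the anion exchanger of red blood cells, was at 5.19 and 5.18. The 3 red blood cell markers measured lay between 4.54 and 4.89 on both arrays. Slc4a3, Slc4a5, Slc4a8, Slc4a9, Slc4a10 and Slc4a11 differed by 0.0068 to 0.48, all from levels below the median.

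Of the 7 measured cation-chloride cotransporters of the SLC12 family 0 were 2-fold apart, compared with 5.02% of all genes, so that a count of 0 among 7 does not set the family apart. Their differences ran from -0.17 to 0.47, and 3 of the 7 lay below the median gene level on both arrays. Slc12a2, the basolateral cotransporter of chloride secretion, was at 9.48 (graft) and 9.52 (colon), a difference of -0.04. That is smaller than the SD of 0.48 between probe sets, though without replicates this does not show equal expression. Slc12a7, a potassium-chloride cotransporter, was at 6.62 (graft) and 6.80 (colon). Slc12a4, of the same kind, lay at 4.89 and 4.84, below the median gene level, as did the kidney gene Slc12a3 and the neuronal gene Slc12a5. Slc12a8 and Slc12a9 reached that level on at least 1 array.

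The 8 members from the SLC8 and SLC24 families encode sodium-calcium exchangers known mainly from excitable cells, eye and pigment cells. All 8 lay below the median gene level on both arrays. Their differences ran from -0.22, for Slc24a3, to 0.16. Slc8b1, a mitochondrial exchanger that the symbol rule does not take in, was above that level, at 5.55 (graft) and 7.11 (colon). Slc8a1, the form of heart muscle, was listed at 4.86 on both arrays, and its dimmer second probe set was at 4.43 (graft) and 4.54 (colon). Of all 50 members 6 were listed with exactly the same value on both arrays (12%), as were 12.6% of all genes. All 6 of these members lay below the median gene level, as did most but not all such genes in the table (409 of 2180 were at or above it).

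The scaffold genes differed by less than the exchanger gene Slc9a3. Slc9a3r1, whose protein ties Slc9a3 and other brush border proteins to the cytoskeleton, was at 8.31 (graft) and 8.61 (colon). Slc9a3r2 was at 5.56 and 5.67, and Slc4a1ap at 5.90 and 5.95. All 3 differences, -0.30, -0.10 and -0.05, were smaller than the SD between probe sets.

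**Figure D2:**
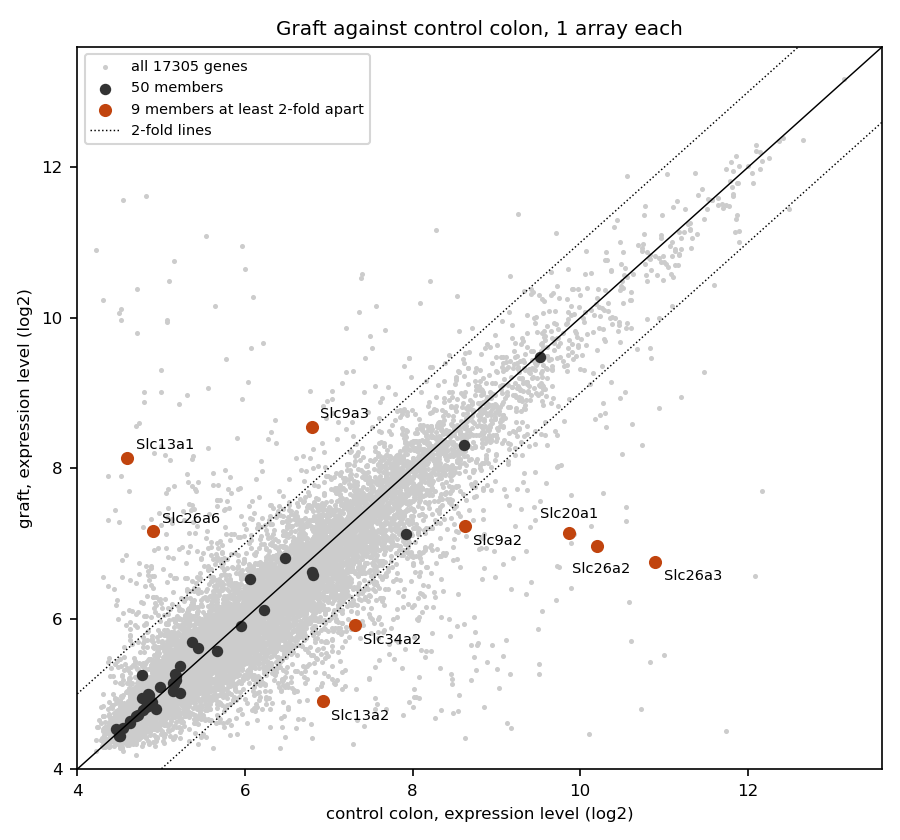
Graft level (y axis) against control colon level (x axis), both deposited log2 values from 1 array each, for all 17305 genes (grey) and the 50 members (dark; the 9 at least 2-fold apart in orange and named). Dotted lines mark a 2-fold difference; 6 members lie below the lower line and 3 above the upper one, and Slc12a2 lies on the diagonal at 9.48 and 9.52.

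The genes that work with these transporters were described by lists chosen for this purpose. Of 16 scaffolds and regulators of the exchangers, 3 were lower by 2-fold or more in the graft and 1 was higher. Over all genes 3.09% were lower and 1.93% higher by that much. Prkg2, the cGMP-dependent kinase that inhibits Slc9a3, was at 5.95 (graft) and 4.62 (colon); this colon level is below the 20th percentile, so its fold is not determined. Guca2a, the gene of the hormone guanylin that acts upstream of this kinase, was 2.35-fold lower, and Sgk2 and Sgk1, of a kinase family that stimulates sodium transport, were 2.42-fold and 2.04-fold lower. With quantile normalization Sgk1 was 1.98-fold lower and the count of lower genes was 2. The list thus held genes in both directions, and its median difference was -0.08. Of 10 kinases and ubiquitin ligase genes that control the SLC12 cotransporters, among them the WNK kinases, 0 were 2-fold apart, with differences from -0.38 to 0.78. With 5.02% of all genes 2-fold apart, a count of 0 among 10 does not set this list apart.

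Pumps, enzymes and channels that share ions with the members were mostly within 2-fold or lower in the graft. The counts below stand beside 3.09% of all genes lower and 1.93% higher by 2-fold or more. Of 12 measured sodium and proton pump genes 2 were lower, Atp12a, the colonic proton-potassium pump, by 17.4-fold and the pump regulator Fxyd4 by 15.5-fold. Of 12 measured carbonic anhydrases, which supply protons and bicarbonate to the exchangers, 3 were lower and 2 higher. Car1 was at 4.51 (graft) and 11.74 (colon). Car2 was 4.75-fold and Car4 2.23-fold lower, while Car8, a member without enzyme activity, was 4.47-fold and Car12 2.24-fold higher. Of 12 channels 3 were lower, Best2 by 4.53-fold and the epithelial sodium channel subunits Scnn1a and Scnn1g by 3.64-fold and 2.23-fold. Cftr, the apical chloride channel that works with Slc12a2, had a difference of 0.18, not named by the gene rule and given here because of that link. In calcium and phosphate handling, 4 of 10 measured genes were lower: the pump gene Atp2a3 by 2.30-fold, the vitamin D receptor gene Vdr by 2.20-fold, the phosphate exporter Xpr1 by 2.18-fold and the calcium channel Trpv6 by 2.10-fold. The graft levels of Car1, Best2, Scnn1g and Trpv6 and the colon level of Car12 lay below the 20th percentile of their array, so these folds are not determined. Of 11 measured related carriers outside the symbol rule, some of them from the same families, 2 were lower. These were the monocarboxylate carrier Slc5a8 by 10.5-fold and the mitochondrial sodium-calcium exchanger Slc8b1 by 2.94-fold.

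**Figure D3:**
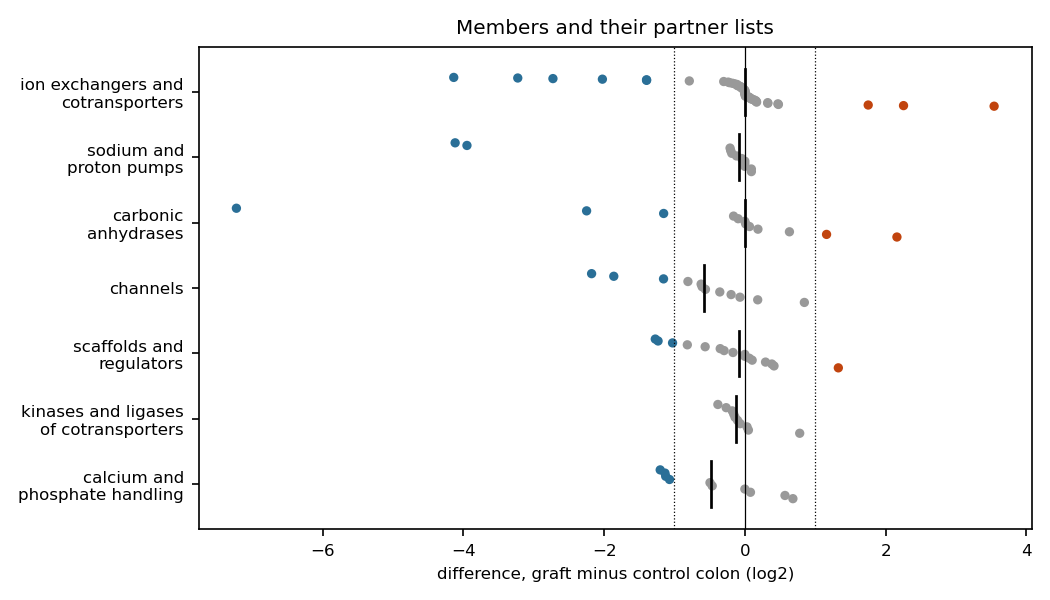
Difference graft minus control colon on the log2 scale (x axis) for each measured gene of the members and of 6 partner lists (rows); each point is 1 gene, coloured where at least 2-fold higher (orange) or lower (blue), dotted lines mark 2-fold and the black bar is the median. The members spread from -4.14 to 3.54, and the kinases and ligases of the cotransporters all lie between the dotted lines.

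Among other epithelial cell types, Paneth and tuft cell markers were higher in the graft, while goblet, enteroendocrine and stem cell markers had no common direction. All 5 measured Paneth cell markers were higher by 2-fold or more, with a summed level of 12.81 in the graft and 7.13 in the colon (log2 of the summed linear values). All 6 tuft cell markers were higher as well, with summed levels of 9.67 and 7.71. In the colon the Paneth markers lay at 4.22 to 5.07 and the tuft markers at 4.91 to 5.32, all below the median gene level. Their summed colon levels may thus be mostly background. Of 5 measured goblet cell markers 0 differed by 2-fold, of 7 enteroendocrine markers 1 was higher and 1 lower, and of 4 stem cell markers 1 was higher and 1 lower. Markers of cells outside the epithelium were mostly within 2-fold, and 5.02% of all genes were 2-fold apart. Of 12 fibroblast and smooth muscle markers 1 was lower, Lum by 3.38-fold, and the median difference of this list was -0.26. Of 6 endothelial markers 1 was higher, Egfl7 by 2.34-fold. Among measured markers, 0 of 7 for leukocytes, 0 of 7 for neurons and glia and 0 of 3 for red blood cells were 2-fold apart. The part of these cell types in the members' differences was not tested. In such bulk samples, fewer cells that express a transporter and less RNA of it per cell cannot be told apart.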

How the data were processed

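Total RNA of 1 graft and 1 control colon specimen was amplified from 4.33 ng with a whole-transcriptome kit and hybridised to single-channel arrays, per the labels' protocols; such amplification can distort single transcripts. The authors deposited log2 expression values of 24074 probe sets; the log base was read from their range (4.19 to 13.46), and no label or header names the software, background correction or normalization. Sorted, the columns differ by no more than 0.25, and any centring of the arrays is unknown. Platform annotation gave 18904 probe sets 1 gene symbol, 1330 several and 3840 none, and only the first kind was used. The brightest probe set stood for a gene. Differences were counted at 2-fold over all genes, with no filter on low values, in Python 3.11.15 with pandas 2.3.3, and the counting was tested on simulated data. With 1 array per group the design allows no test, and their number limits the precision. Alternatives were other probe set rules, quantile normalization, centring, filters on low values, the symbol rule and the fold threshold. Members at least 2-fold apart and a set of anchor members are given with both values, other members by range or, in families of under 6 genes, with values, and of each partner list at most 4 genes per direction that are at least 2-fold apart. The members and lists were chosen with earlier results of these data known.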

Additional observations from a re-analysis of the deposited data

How the results depend on the processing

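The counts of 6 lower and 3 higher members were the same with the mean or the second brightest probe set, with quantile normalization, with each array centred on its gene median and without the 3 genes that are not transporters. They were also the same with only genes that reach the median level (21 members) or the 75th percentile (15 members). These filters keep a gene through the array where it is high. There the members' median was -0.11 and -0.30, against -0.05 and -0.11 for all genes kept, of which 9.22% and 14.3% were 2-fold apart. The 9 members at least 2-fold apart are all transporters, have 1 probe set each and reach the 75th percentile on at least 1 array. Their counts thus could not change under the probe set rules, either filter or the removal of the 3 other genes. At 4-fold the counts were 4 and 2, and at 1.5-fold 7 and 3. Under the 4 other probe set rules and normalizations, all 80 values for 20 named members stayed within the probe set SD of the reported value, the largest shift being 0.11, and 0 called members changed direction. Since 48 members have 1 probe set, the probe set rules could alter only 2 of them. Raising values under the gene median to it, an alternative chosen after seeing the data, left the 2-fold counts at 6 and 3. It reduced the differences of Slc13a1, Slc26a6 and Slc13a2 as given above, and the last 2 of these fell below 4-fold. Of 240 list counts, 221 were within 1.5 times the reported count, and the other 19 differed at a changed fold threshold. No paired analysis was possible because each group has 1 array. Signal near background limits the 29 members below the median level on both arrays, where a difference would be understated by an unknown amount.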

Other observations

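The nearest protein-coding RefSeq gene on each side of the 9 members at least 2-fold apart was looked up, and 15 of these neighbours were measured. Of the 15, 1 was at least 2-fold apart, a share near the 5.02% of all genes: Slc46a1, the proton-coupled folate transporter gene next to Slc13a2, at 5.54 (graft) and 6.97 (colon). It was chosen after its values were seen. Its difference of -1.43 had the same direction as the -2.02 of Slc13a2. Chchd5, beside Slc20a1, followed with -0.99. Slc9a4, beside Slc9a2 and of the same family, was at 4.70 on both arrays while Slc9a2 was lower in the graft. The neighbours of Slc26a3, Dld and Cbll1, had differences of 0.13 and -0.02.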
